A study of Homo sapiens with 3 samples.

Results

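TAGLN encodes transgelin (SM22), a small protein that binds actin filaments and is best known from smooth muscle. It is described here together with 9 other genes of the actin-binding contractile apparatus: its paralogue TAGLN2, the smooth muscle actin ACTA2, the tropomyosins TPM1 and TPM2, the calponins CNN1 and CNN2, the myosin light chain MYL9, the caldesmon gene CALD1 and the alpha-actinin ACTN1. The 10 genes were found by name among the 58735 genes counted in each library and lie on 9 chromosomes. TAGLN was taken as the centre because its ratio to the control in both knockdown libraries was already known, and the other genes were chosen for their function with results of these libraries in view, so the 10 were chosen by measured values of these same libraries, and their ratios are a description without a test.

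RNA was sequenced from A549, an established human lung adenocarcinoma line, in 3 libraries of 1 sample each: control cells (Control-sh) and cells carrying one of 2 shRNAs against the RNA helicase gene DDX24 (DDX24-sh1 and DDX24-sh2). All lines were made with lentiviral pLKO.1 vectors and kept under puromycin, so viral integration and drug selection are shared by the groups and the shRNA is expressed stably. The methods describe the control as the empty vector and another passage as a control shRNA, and which of them Control-sh holds is not known. The labels do not say whether a line was a clone or a pool, and no condition has a replicate.

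Contractile cells pull by sliding myosin along actin filaments. Tropomyosin lies along the filament and sets which proteins can reach it, caldesmon and calponin bind actin and restrain myosin, transgelin and alpha-actinin bundle or cross-link filaments, and phosphorylation of the regulatory myosin light chain switches non-muscle and smooth muscle myosin on. In smooth muscle and in myofibroblasts many of these genes are transcribed through serum response factor (SRF), which binds a short motif called the CArG box and works with the coactivators myocardin and MRTF. Epithelial cells such as A549 make the non-muscle forms of these proteins, in stress fibres and at the cell cortex, and only little of the smooth muscle forms.

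The upstream sequences of the genes are shown because many of these genes are textbook targets of SRF. RefSeq promoter windows on GRCh38.p14, from 250 bases before to 50 bases after each annotated start, were found for 8 of the 10 genes, all but TAGLN and MYL9, with 18 windows in all. The CArG box was searched as CC, then 6 bases of A or T, then GG, and a near match has 1 base of those 6 changed to another. Both forms read the same way on either strand. Capitals mark the matches, and each stretch is printed 5′ to 3′ on the strand of its gene, up to the first base that belongs to an exon of any transcript. CNN2 (chr19:1026358-1026580, plus strand) held an exact box that begins 89 bases before the start, and ACTN1 (chr14:68977655-68977816, minus strand) held an exact box that begins 171 bases before the start of one of its transcripts. ACTA2 (chr10:88952774-88953023, minus strand) held 2 near matches, which begin 121 and 71 bases before the start of one of its transcripts. The window at its other start held no match. TPM2 (chr9:35690122-35690306, minus strand) is shown beside them as a gene whose windows held no match.
CNN2: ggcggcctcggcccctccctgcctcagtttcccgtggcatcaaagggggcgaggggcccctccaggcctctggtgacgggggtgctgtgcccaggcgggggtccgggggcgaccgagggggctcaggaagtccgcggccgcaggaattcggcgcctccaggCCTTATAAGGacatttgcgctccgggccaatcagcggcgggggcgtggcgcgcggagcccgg
ACTN1: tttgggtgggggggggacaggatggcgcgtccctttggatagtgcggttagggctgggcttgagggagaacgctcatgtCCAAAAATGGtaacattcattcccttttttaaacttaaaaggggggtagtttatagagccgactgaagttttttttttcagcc
ACTA2: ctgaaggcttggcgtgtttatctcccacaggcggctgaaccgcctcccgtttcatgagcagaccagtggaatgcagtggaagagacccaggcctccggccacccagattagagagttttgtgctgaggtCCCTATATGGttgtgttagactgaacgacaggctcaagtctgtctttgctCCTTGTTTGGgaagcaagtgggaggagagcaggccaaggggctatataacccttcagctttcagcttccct
TPM2: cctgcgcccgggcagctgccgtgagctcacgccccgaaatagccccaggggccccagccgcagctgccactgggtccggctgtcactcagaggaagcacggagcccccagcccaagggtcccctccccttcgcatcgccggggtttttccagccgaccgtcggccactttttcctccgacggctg

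An exact box stood in 2 of the 18 windows (11.1%), against 453 of all 34943 RefSeq windows of the same length (1.30%). With near matches included, 4 of the 18 windows (22.2%) held a match, against 8.14% of all windows. These windows belong to 4 of the 8 genes, ACTA2, ACTN1, CALD1 and CNN2. The share of all genes with a match was not computed, and a gene with several windows has more chances to match. Nothing is therefore read from the count of genes. Many of these genes are textbook SRF targets, so nothing is read from the gap to all windows either. The hexamer GGAATG, a core bound by TEAD factors, was also searched on both strands. It stood in 4 of the 18 windows (22.2%), against 14.0% of all windows. One of these 4 is the ACTA2 window that holds the near matches. A match is a run of letters and not a measured site, and the 2 windows of TPM2 overlap each other.

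The DDX24 transcript, the target of both shRNAs, was counted 2010 times in the control library, against 637 in DDX24-sh1 and 765 in DDX24-sh2, or 29.6% and 35.99% of the control level after scaling. The counts of the 3 libraries sum to between 17218884 and 18337471, and mitochondrial genes took 4.36%, 5.13% and 7.04% of them (in the order control, DDX24-sh1, DDX24-sh2, which also holds wherever 3 values of a gene stand in a row). Levels are given as CPM, the counts divided by the library size and brought to a common size, with library sizes scaled by edgeR's TMM method, and ratios to Control-sh are in log2 units with a prior count of 2. The interval beside a ratio is the exact 95% interval allowed by the 2 counts. Differences between cultures are not part of it, only counting error is, and since no molecular identifiers are described the reads need not come from separate molecules. The labels DDX24-sh1 and DDX24-sh2 are those of the counts. The FPKM values deposited for the same libraries carry the 2 labels the other way round, and which is right is not known, so a difference between the 2 shRNA libraries below may belong to either shRNA. Fewer cells expressing a gene and less of its RNA per cell cannot be told apart in these libraries.

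The 10 genes spanned a wide range of levels in A549. Compared per length, as CPM per kb of gene length, TAGLN2 was the most abundant in Control-sh at 203, followed by TPM2 at 65.6, ACTN1 at 59.7, CALD1 at 29.04, TPM1 at 28.2 and CNN2 at 24.4. On this measure CALD1 and TPM1 did not differ beyond counting error. The order depends on the lengths, which join all exons of a gene. That of TPM1 is 12876 bases, while its principal transcript has 1049. Without division by length TPM1 stood at 364 CPM, above CALD1 at 286 and TPM2 at 213. ACTN1 at 634 CPM then stood above TAGLN2 at 505. The genes known best from smooth muscle came last, with MYL9 at 3.55, TAGLN at 2.26, ACTA2 at 1.79 and CNN1 at 0.0812 CPM per kb, and TAGLN and ACTA2 did not differ beyond counting error. In the DDX24-sh1 library MYL9 stood at 12.5 and TAGLN at 6.70 CPM per kb, and in DDX24-sh2 at 8.52 and 7.0, which left both below the 6 abundant genes. TPM2 came closer to TAGLN2, at 106 against 175 CPM per kb in DDX24-sh1 and 112 against 199.7 in DDX24-sh2. The per-length order from TAGLN2 through TPM2 to ACTN1 at the top and from MYL9 through TAGLN to ACTA2 and CNN1 at the bottom was the same in each library.

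**Figure D1:**
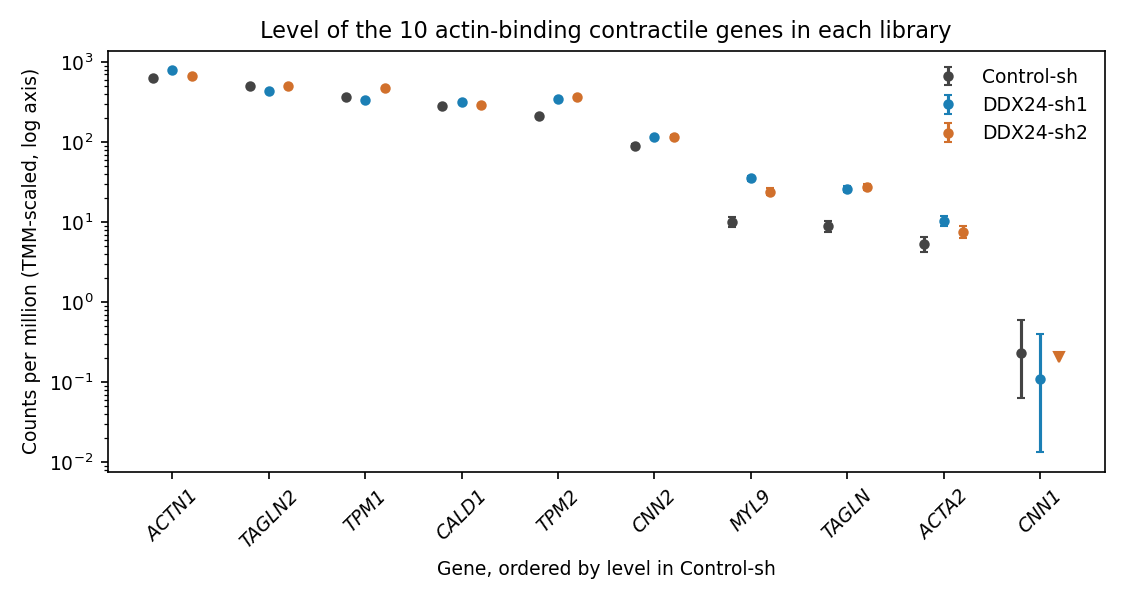
Level of each of the 10 genes in the 3 libraries, in TMM-scaled CPM on a log axis, with genes ordered by their level in Control-sh. Points are single libraries and bars are exact 95% counting intervals. TAGLN stands at 8.85 CPM in Control-sh and at 26.2 and 27.4 CPM in the knockdown libraries, while TAGLN2 stays between 435 and 505 CPM.

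TAGLN and MYL9 were the genes with the largest ratios among the 10, and both were more than 2-fold higher in both knockdown libraries than in Control-sh. TAGLN (ENSG00000149591, plus strand, chr11:117199321-117204782) had 151 counts in the control, 480 under DDX24-sh1 and 495 under DDX24-sh2, or 8.85, 26.2 and 27.4 CPM. It was 2.97-fold the control level in DDX24-sh1, a log2 ratio of 1.56 (interval 1.30 to 1.84), and 3.10-fold in DDX24-sh2, a log2 ratio of 1.62 (1.37 to 1.90). The 2 knockdown libraries were close to each other, with a log2 ratio of the second to the first of 0.063 and an interval from -0.12 to 0.25. Ordered by ratio among the 13984 genes that reached a mean of 1 CPM or more, TAGLN stood at place 66 from the top in DDX24-sh1 and at place 92 in DDX24-sh2.

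MYL9 (ENSG00000101335, plus strand, chr20:36541484-36551447), the regulatory light chain of smooth muscle and non-muscle myosin, had 171 counts in the control, 646 under DDX24-sh1 and 434 under DDX24-sh2. Its level was 10.0 CPM in the control, 35.3 under DDX24-sh1 and 24.04 under DDX24-sh2. The log2 ratio was 1.81 (1.57 to 2.07) in DDX24-sh1 and 1.25 (1.0 to 1.53) in DDX24-sh2, or 3.53-fold and 2.40-fold. Both libraries were thus above the control, but unlike TAGLN the 2 differed from each other beyond counting error, DDX24-sh2 being lower by a log2 ratio of -0.55 (-0.73 to -0.38). MYL9 stood at place 30 from the top in DDX24-sh1 and at place 224 in DDX24-sh2.

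The smooth muscle actin gene ACTA2 (ENSG00000107796, minus strand, chr10:88935074-88991339) had 91, 189 and 135 counts. It reached 10.3 CPM in DDX24-sh1 and 7.48 in DDX24-sh2, from 5.33 in the control. The log2 ratios were 0.94 (0.59 to 1.33) and 0.48 (0.094 to 0.89), so both intervals lay above 0 and the wide one of DDX24-sh2 came close to it. DDX24-sh2 was lower than DDX24-sh1 by a log2 ratio of -0.46 (-0.80 to -0.14). The near matches to the CArG box printed above lie in a promoter window of this gene, and its other window held none. Their part in these ratios was not tested.

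The 2 tropomyosin genes differed from each other. TPM2 (ENSG00000198467, minus strand, chr9:35681992-35690121), the beta-tropomyosin gene, had 3638 counts in the control, 6271 under DDX24-sh1 and 6562 under DDX24-sh2. Its log2 ratio was 0.69 (0.63 to 0.75) in DDX24-sh1 and 0.77 (0.71 to 0.83) in DDX24-sh2, or 1.61-fold and 1.71-fold, which places it after TAGLN and MYL9 by the smaller of its 2 ratios, and its interval is narrower than theirs. TPM1 (ENSG00000140416, plus strand, chr15:63042632-63071915), the alpha-tropomyosin gene, had 6207, 6226 and 8654 counts. It was slightly below the control in DDX24-sh1, with a log2 ratio of -0.095 (-0.15 to -0.044), and above it in DDX24-sh2, at 0.40 (0.35 to 0.45). TPM1 was therefore the gene of the 10 whose intervals lay on opposite sides of 0 in the 2 knockdown libraries, and DDX24-sh2 stood above DDX24-sh1 by a log2 ratio of 0.49 (0.45 to 0.54). Its annotation holds 34 transcripts, the most of the 10, and counts per gene do not separate them.

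Of the 2 calponin genes among the 10, whose proteins bind actin and calmodulin, only CNN2 was expressed at a level that gives a ratio. CNN2 (ENSG00000064666, plus strand, chr19:1026581-1039068) had 1520, 2091 and 2114 counts and log2 ratios of 0.36 (0.26 to 0.46) and 0.39 (0.30 to 0.49). The 2 knockdown libraries did not differ beyond counting error, with an interval from -0.053 to 0.12. CNN1 (ENSG00000130176, plus strand, chr19:11538717-11550323), the calponin of differentiated smooth muscle, had 4 counts in the control, 2 under DDX24-sh1 and 0 under DDX24-sh2. A count of 0 in DDX24-sh2 allows a level of up to 0.204 CPM at the upper limit of its 95% interval, and the interval of the DDX24-sh1 ratio ran from -4.57 to 1.70, so no difference in CNN1 was detectable at this depth. CNN1 is the only one of the 10 with a mean under 1 CPM.

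TAGLN2 (ENSG00000158710, minus strand, chr1:159918107-159925732), the transgelin of epithelial and other non-muscle cells, had 8626 counts in the control, 7957 under DDX24-sh1 and 8964 under DDX24-sh2. Its log2 ratio was -0.22 (-0.26 to -0.17) in DDX24-sh1 and close to 0 in the other knockdown library, where it was -0.025 (-0.068 to 0.018), and scaling by total counts turned the sign of that value. TAGLN2 was thus not higher in either library, in contrast to TAGLN.

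CALD1 (ENSG00000122786, plus strand, chr7:134744252-134970728), which encodes caldesmon, had 4879, 5868 and 5302 counts. Its log2 ratio was 0.17 (0.11 to 0.22) in DDX24-sh1 and 0.039 (-0.017 to 0.096) in DDX24-sh2, which does not exceed counting error. ACTN1 (ENSG00000072110, minus strand, chr14:68874143-68979440), which encodes an alpha-actinin that cross-links actin filaments in stress fibres and at adhesions, had 10822, 14386 and 12175 counts. Its log2 ratio was 0.31 (0.27 to 0.35) in DDX24-sh1 and 0.089 (0.052 to 0.13) in DDX24-sh2. Both genes, like MYL9 and ACTA2, were lower in DDX24-sh2 than in DDX24-sh1, by log2 ratios of -0.13 (-0.18 to -0.073) for CALD1 and -0.22 (-0.26 to -0.19) for ACTN1.

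**Figure D2:**
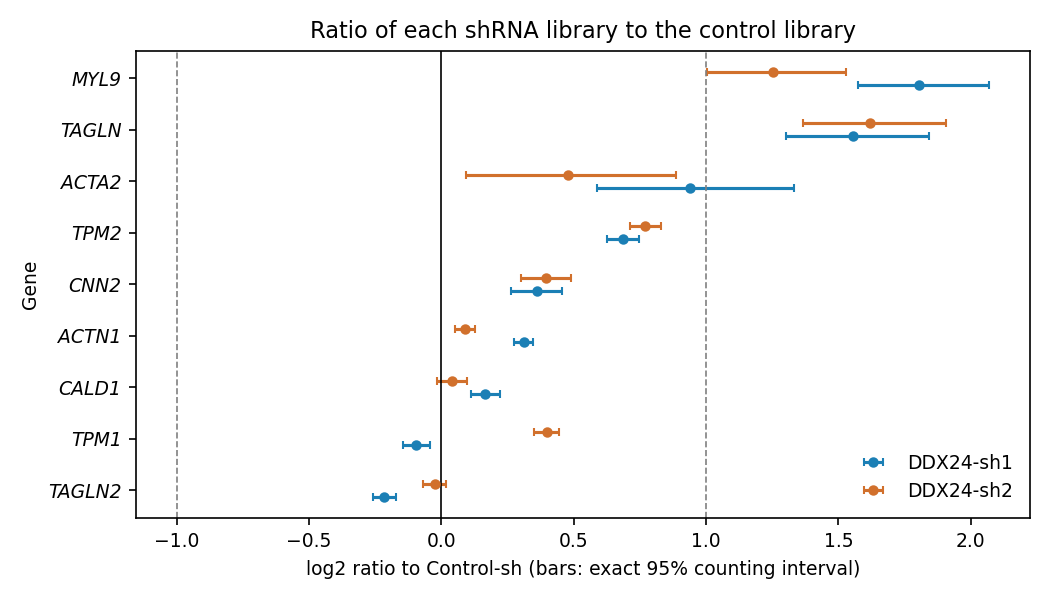
Log2 ratio to Control-sh for each shRNA library of the 9 genes that reached a mean of 1 CPM (CNN1, with at most 4 counts, is not drawn), with exact 95% counting intervals as bars. TAGLN and MYL9 lie above 1, which is 2-fold, in both libraries and TPM1 lies on either side of 0.

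Of the 10 genes, 2 were more than 2-fold higher in both knockdown libraries and 0 more than 2-fold lower. Among the 13984 genes that reached a mean of 1 CPM, 9 of the 10 included, 1.19% were 2-fold higher in both libraries and 1.38% 2-fold lower in both. At 1.5-fold TPM2 joined TAGLN and MYL9, making 3 genes, where 4.23% of all genes were higher and 4.72% lower. For 6 of the 10, namely TAGLN, ACTA2, TPM2, CNN2, MYL9 and ACTN1, the counting interval lay above 0 in both libraries, against 14.0% of all genes. The median log2 ratio of the 10 genes was 0.34 for DDX24-sh1 and 0.40 for DDX24-sh2, beside -0.021 and -0.026 over all 13984 genes. Both comparisons use the same control library, so they are not independent of each other, and the 10 genes were named with their ratios known, so nothing is read from the gap between these shares. For 7 of the 10 the 2 knockdown libraries differed from each other beyond counting error. The share of all genes that did so was not computed, so nothing is read from this count. Genes with many counts pass at small differences, such as TPM2 at a log2 ratio of 0.085 (0.034 to 0.13).

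**Figure D3:**
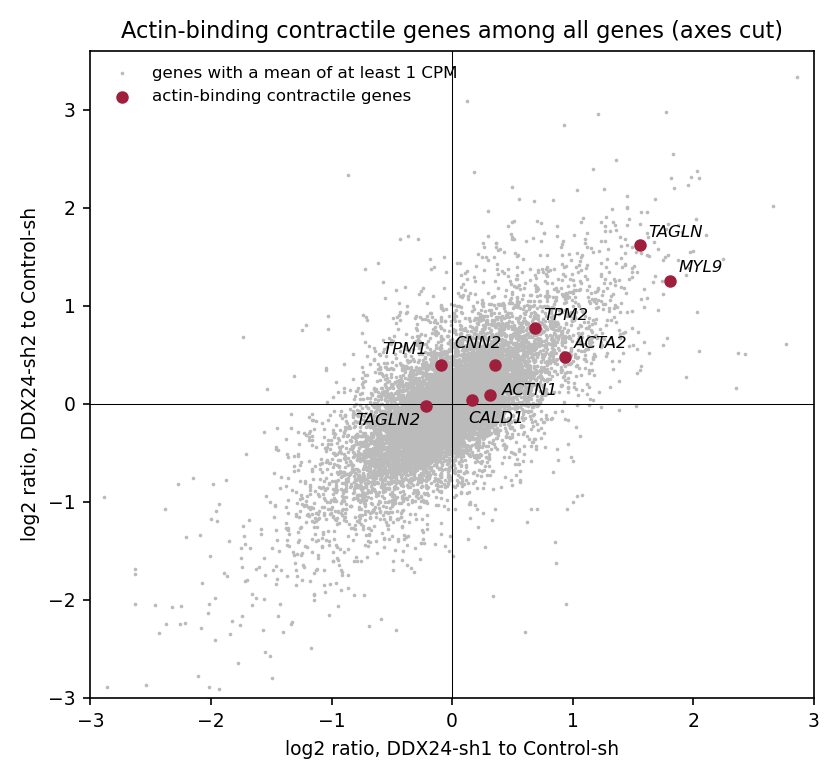
Log2 ratio to the control library under DDX24-sh1 (horizontal axis) and DDX24-sh2 (vertical axis), for genes that reached a mean of 1 CPM in grey and for the 9 of the 10 actin-binding contractile genes among them in red, with axes cut so that the most extreme genes are not drawn. Both ratios use the same control library. TAGLN (1.56 and 1.62) and MYL9 (1.81 and 1.25) lie in the upper right part, and the abundant genes of the group lie close to the centre.

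Within some families the mix of related genes differed between the libraries. Expressed per length, TAGLN made up 1.1% of TAGLN and TAGLN2 together in the control, 3.69% under DDX24-sh1 and 3.39% under DDX24-sh2. TAGLN2 thus remained nearly all of the transgelin RNA in each library. Among the regulatory light chains, MYL9 was 2.36% of the total with MYL12A and MYL12B in the control, 6.57% under DDX24-sh1 and 4.89% under DDX24-sh2. MYL12B, one of the non-muscle forms, was the largest part throughout, at 68.4%, 63.2% and 62.7%.

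Among the tropomyosins TPM2 was 30.9% of the per-length sum of TPM1 to TPM4 in the control, 40.6% under DDX24-sh1 and 39.1% under DDX24-sh2, and the sum itself was 212, 260 and 286 CPM per kb. TPM4, the largest part per length in the control at 35.2%, stood at 30.1% and 28.0%, below TPM2 in both knockdown libraries. This change of order depends on the lengths. As shares of counts, TPM4 stayed the largest part, at 40.6%, 38.0% and 34.4%, against 13.4%, 19.3% and 18.05% for TPM2. TPM1 was 13.3%, 10.2% and 13.0%. ACTA2 remained a trace of the actin RNA, at 0.0622%, 0.114% and 0.0833% of the per-length sum with ACTB and ACTG1. ACTN1 was 13.3%, 13.9% and 12.7% of the sum with ACTN4. These lengths join the exons of all transcripts of a gene, so a gene with many exons in few transcripts has its level understated.

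**Figure D4:**
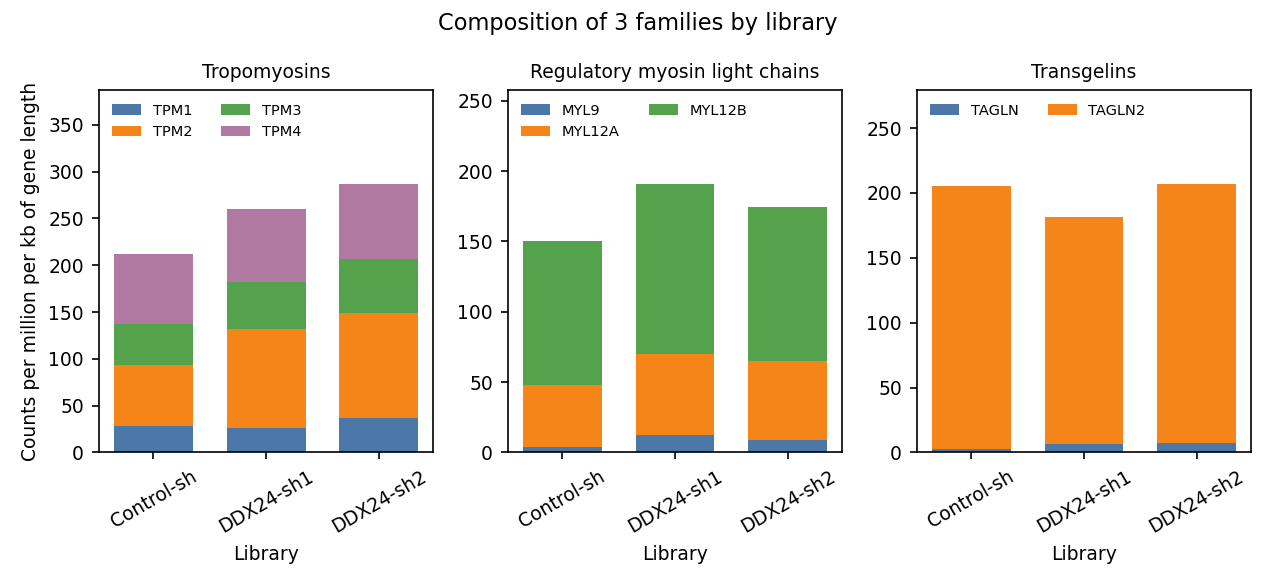
Stacked per-length levels (CPM per kb of gene length) of the genes of 3 families in the 3 libraries, with bars starting at 0. The bar of TPM2 grows from 65.6 to 106 and 112 CPM per kb, while TAGLN and MYL9 remain thin layers beside TAGLN2 and beside MYL12A and MYL12B.

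The paralogues that share these functions were mostly a little higher as well, and of those that reached a mean of 1 CPM none was past 2-fold in both libraries. Of 16 paralogues, 10 had a mean of at least 1 CPM. Of these, 8 had ratios above 0 in both libraries, against 34.6% of all genes. For 7 the interval lay above 0 in both, against 14.0% of all genes. Genes with many counts pass at small ratios, such as TPM4 at 0.066 and 0.10, so nothing is read from this share. Their median log2 ratios were 0.21 and 0.11. The essential light chain MYL6 had the largest ratios, 0.54 and 0.45, from 4702, 7314 and 6792 counts. MYL12A followed with 2439, 3417 and 3311 counts and ratios of 0.39 and 0.36. TPM3 stood at 0.20 and 0.39, TPM4 at 0.066 and 0.10, and ACTN4 at 0.24 and 0.17. The calponin gene CNN3 had 1308, 1593 and 1421 counts and ratios of 0.18 and 0.039, and MYL6B, another essential light chain gene, stood at 0.53 and -0.017, the second value turning sign under scaling by total counts. The cytoplasmic actins, by far the most abundant of the group, were near the control, ACTG1 at 0.16 and 0.12 and ACTB at -0.063 and -0.016, the last turning sign when libraries were scaled by total counts. The muscle forms were almost unseen: ACTC1 had 11, 19 and 7 counts, ACTA1 had 6, 2 and 8, ACTG2 had 0, 9 and 3, and ACTN2 had 0 in each library. TAGLN3 and ACTN3 had 2 counts each in the control and 0 in both knockdown libraries.

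The regulators around myosin and the filaments, taken from lists of related genes, included no gene past 2-fold higher in both libraries. Of 21 genes of non-muscle myosin and its regulators, 6 were higher in both libraries, 10 lower in both and 5 mixed, near the 34.6% and 40.2% of all genes that were higher and lower in both, with medians of -0.13 and -0.059. The lowest was PPP1R12B, a targeting subunit of the phosphatase that removes phosphate from the myosin light chain, with 403, 234 and 259 counts and ratios of -0.88 and -0.71. ARHGEF2, which encodes a guanine nucleotide exchange factor bound to microtubules, followed with ratios of -0.62 and -0.49. The highest was PPP1R14A, which encodes CPI-17, an inhibitor of that phosphatase, with 900, 1306 and 1391 counts and ratios of 0.44 and 0.55. RHOC (0.16 and 0.18) and RHOB (0.18 and 0.16) came next.

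Of 24 stress fibre and focal adhesion genes, 12 were higher in both libraries, 9 lower in both and 3 mixed, beside the same 34.6% and 40.2% of all genes, with medians of 0.060 and 0.0039. LIMA1, which encodes the actin-bundling protein EPLIN, had 655, 1307 and 1192 counts and ratios of 0.89 and 0.78. PDLIM7, a LIM protein of actin filaments, had 999, 1950 and 1832 counts and ratios of 0.86 and 0.79, and TGFB1I1 (Hic-5) stood at 0.36 and 0.42. At the other end TES, a focal adhesion gene, had 1644, 1033 and 1023 counts and ratios of -0.77 and -0.76, followed by SYNPO2 (-0.22 and -0.78) and LPP (-0.27 and -0.59). Genes of the same structures thus stood on either side of the control, and LIMA1 and PDLIM7 had ratios close to those of TPM2.

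Of 25 actin assembly and severing genes, 18 were higher in both libraries and 6 lower in both, where 34.6% and 40.2% of all genes were, with medians of 0.18 and 0.099. ARPC5, a subunit of the Arp2/3 complex, had 3298, 5355 and 4852 counts and ratios of 0.60 and 0.48. The actin-depolymerizing factor DSTN stood at 0.61 and 0.43, and COTL1 at 0.39 and 0.41. The formin DIAPH3 (-0.77 and -0.40), the cofilin phosphatase SSH1 (-0.49 and -0.55) and WDR1 (-0.17 and -0.22) were lowest.

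The 8 genes of the SRF list went the other way from TAGLN, all 8 being lower in both libraries, where 40.2% of all genes were. The list holds SRF, coactivators, ternary complex factors and a suppressor of MRTF, so its genes do not all act the same way. The interval lay below 0 in both for 6 of them, against 20.6% of all genes. SRF itself was little different, with 970, 989 and 872 counts and ratios of -0.072 (-0.20 to 0.057) and -0.23 (-0.37 to -0.10). The MRTF genes were lower, MRTFA with 1858, 1608 and 1330 counts (-0.31 and -0.56) and MRTFB with 1183, 1001 and 1021 counts (-0.34 and -0.29). The ternary complex factor genes ELK1, with 970, 997 and 780 counts (-0.060 and -0.39), and ELK3, with 1746, 1314 and 1193 counts (-0.51 and -0.63), and SCAI, which encodes a suppressor of MRTF, with 227, 153 and 167 counts (-0.66 and -0.52), had ratios below 0 too, that of ELK1 in DDX24-sh1 not beyond counting error. MYOCD, which encodes myocardin, had 184 counts in the control, 66 under DDX24-sh1 and 32 under DDX24-sh2, a log2 ratio of -1.55 (-2.01 to -1.17) and -2.53 (-3.19 to -2.06). It was the only one past 2-fold in both libraries among the 88 related genes that reached a mean of 1 CPM, at 33.5% and 16.4% of the control level. Of all genes, 1.19% were past 2-fold higher and 1.38% past 2-fold lower in both, so this count is near the general share. The activity of these factors was not measured. Over all 94 related genes, 88 reached a mean of 1 CPM. Of these, 44 were higher in both libraries, 34 lower in both and 10 mixed, with medians of 0.057 and 0.026. Of all genes, 34.6% were higher and 40.2% lower in both.

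**Figure D5:**
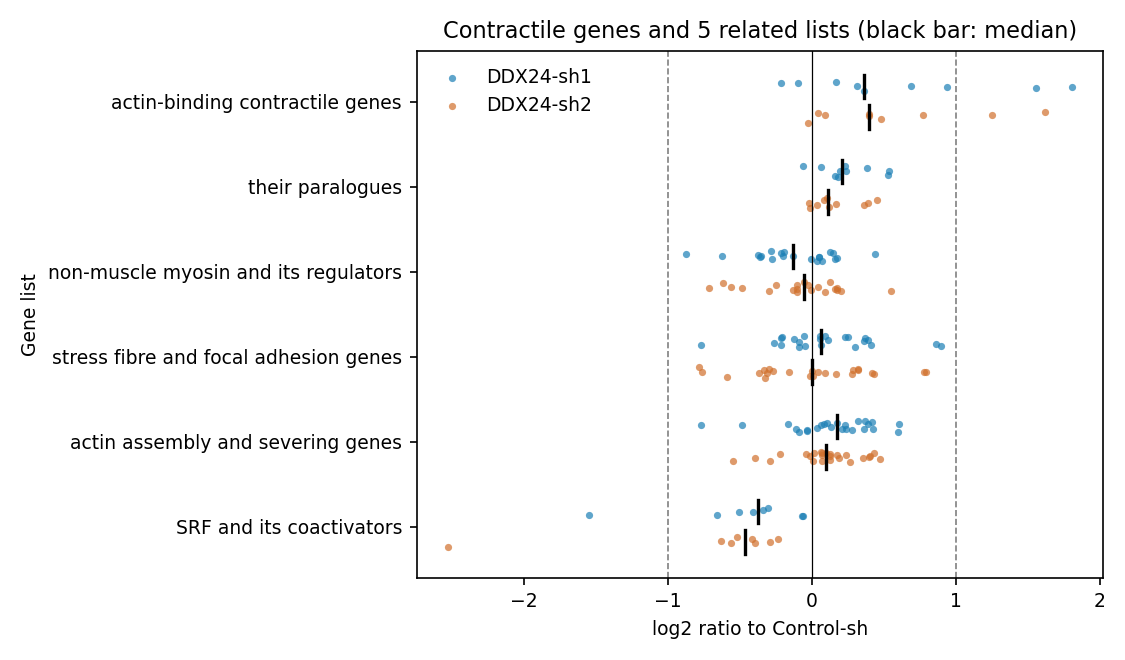
Log2 ratio to Control-sh of 9 of the 10 contractile genes and of 5 lists of related genes, 1 point per gene and library for genes that reached a mean of 1 CPM, with the median of each list as a black bar and dashed lines at 2-fold. The medians of the 9 genes are 0.36 and 0.40, those of the SRF list -0.37 and -0.47, and those of the other lists lie between -0.13 and 0.21.

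The markers of the cell types in which TAGLN, ACTA2 and MYL9 are usually abundant were examined beside these values. Of 8 markers of differentiated smooth muscle, 3 had a mean of at least 1 CPM, and all 8 summed to 126 CPM in the control, 121 under DDX24-sh1 and 114 under DDX24-sh2. PLN and KCNMB1 were at 0 counts in each library, DES had 2, 3 and 2 counts and the smooth muscle myosin gene MYH11 had 9, 16 and 11. The largest part of the sum was SYNM, which encodes the intermediate filament protein synemin, with 1557, 1344 and 1242 counts and ratios of -0.31 (-0.42 to -0.21) and -0.41 (-0.52 to -0.30). SMTN, which encodes smoothelin, had 400, 764 and 754 counts and a ratio of 0.83 in both, and LMOD1 had 2, 12 and 15 counts. MYOCD, given above, is the other marker with a mean of at least 1 CPM. Its ratios of -1.55 and -2.53 were the lowest of the 3. Of 10 fibroblast markers, 5 had a mean of at least 1 CPM, and all 10 summed to 31.8, 58.6 and 42.8 CPM. Most of this sum was 1 gene, THY1, with 332 of 543, 704 of 1071 and 506 of 773 counts. The 5 that reached this mean had median log2 ratios of 1.08 and 0.52. Of them 4 were higher in both libraries and 1, COL1A1, was mixed (0.22 and -0.039), where 34.6% of all genes were higher in both. The interval lay above 0 in both for 2, against 14.0% of all genes. FAP stood at 1.38 and 0.23. The collagen gene COL1A2 (0, 0 and 3 counts) and the matrix gene DCN (1, 1 and 0) were at or near 0. The collagen gene COL3A1 had 2, 27 and 8 counts, few in the control and more in both knockdown libraries. LUM (27, 80 and 68) was past 2-fold in both. The part of the fibroblast markers in the ratios of TAGLN, MYL9 and ACTA2 was not tested.

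Of 6 epithelial markers, 2 were higher in both knockdown libraries, 3 lower in both and 1 mixed, beside 34.6% and 40.2% of all genes higher and lower in both. The keratin genes KRT8, with 64704, 69499 and 63926 counts, and KRT18, with 24754, 24998 and 22548, were abundant in every library. EPCAM had 32, 29 and 29. KRT19 was past 2-fold higher in both, with 1001, 2251 and 2728 counts. CDH1, the E-cadherin gene, had 538, 358 and 261 counts and log2 ratios of -0.68 and -1.12, the lowest of the 6 in both libraries. Of the alveolar type II markers SFTPA1 and NKX2-1 were at 0 in each library, and the 5 markers together had 26, 34 and 43 counts.

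Some counts can hold reads of other genes. The strand setting of the counting is not given in the sources used here, and where 2 genes overlap on opposite strands their reads then cannot be told apart. The last 446 bases of TAGLN (chr11:117204337-117204782) overlap PCSK7, which had 219, 353 and 331 counts and ratios of 0.58 and 0.51. ACTA2 overlaps FAS over 758 bases and STAMBPL1 over 40080 bases. STAMBPL1, a deubiquitinase gene, had 672, 648 and 741 counts, more than ACTA2 in each library, and ratios of -0.15 and 0.060. FAS, the death receptor gene, had 266, 400 and 596 counts and ratios of 0.49 and 1.08, so it was higher in DDX24-sh2 than in DDX24-sh1 while ACTA2 was lower. All 9964 bases of MYL9 lie within DLGAP4-AS1, which had at most 1 count. TPM1-AS overlaps TPM1 over 3354 bases and had 10, 20 and 29 counts, small beside the 6207 of TPM1. Near-copies among annotated transcripts were found for CNN2 and TAGLN2, each with at most 3 counts in any library: CNN2P9 is 91.1% identical over 930 bases and TAGLN2P1 95.3% identical over 597 bases.

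The genes whose pair of ratios lay closest to that of TAGLN, by the distance between the 2 log2 ratios over 11101 genes that reached a mean of 5 CPM, were ARRDC3 (distance 0.064), ANPEP (0.11), SLC4A8 (0.12), HSPA8 (0.14) and LFNG (0.14). ARRDC3 had 141, 430 and 456 counts, a profile near the 151, 480 and 495 of TAGLN. The likeness rests on 3 libraries and 1 shared control, and none of these 5 is among the 10 genes.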

How the data were processed

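RNA of 3 A549 libraries was sequenced from 4 μg of total RNA each. The authors deposited unnormalised counts, whole numbers for each gene, and FPKM, which divide them by gene length and library size. The submitters' processing notes name Bowtie2 2.0.6, TopHat2 2.0.9, Cufflinks 2.1.1 and Cuffdiff 2.1.1 without their roles, and the counter and strand setting are not given in the sources used here. Gene identifiers, starts and ends are those of GENCODE 29 (GRCh38) for all 58735 genes.

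Library sizes were scaled with TMM (factors 0.991, 0.997 and 1.01; edgeR 4.0.16 in R 4.3.3). Log2 ratios used a prior count of 2, and intervals are exact 95% Clopper-Pearson intervals of 2 counts. With 1 library per condition no model was fitted and no p-value computed. The ratio and interval steps were tested on simulated data. Copies were searched with BLAST 2.17.0, and motifs and figures were made in Python 3.11.15 with matplotlib 3.10.9.

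The 10 genes and the lists were chosen with earlier results of these data known. Named genes are the 10, DDX24, their paralogues, the 3 highest and 3 lowest of each list with a mean of at least 5 CPM, list genes past 2-fold in both libraries, the 5 genes nearest to TAGLN, and overlapping genes or copies. Of the genes this rule covers, 1 is not reported here. Other marker genes, MRTFA and VASP were chosen after their values were seen. Alternatives were DESeq2 1.42.0 size factors, total counts, TMM without mitochondrial genes, a prior count of 0.5, the FPKM as log2(FPKM + 0.1), 1.5-fold, other filters and shares without length.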

Additional observations from a re-analysis of the deposited data

Results flagged for a closer look

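The genes given here had ratios of opposite sign in the 2 knockdown libraries, and they are not all the genes that did. Among the 88 related genes that reached a mean of 1 CPM, 10 were mixed. Of these VASP, a stress fibre gene, had intervals on opposite sides of 0, as TPM1 did. Its log2 ratios were 0.11 (0.040 to 0.18) under DDX24-sh1 and -0.33 (-0.41 to -0.26) under DDX24-sh2. With 1 library per shRNA the difference between the shRNAs was not tested. TPM1, the only one among the 10 genes, stood at -0.095 under DDX24-sh1 and 0.40 under DDX24-sh2 (log2 ratio to Control-sh), and the ratio of the 2 knockdown libraries had a counting interval of 0.45 to 0.54. Among the paralogues, the essential light chain gene MYL6B stood at 0.53 and -0.017 from 643, 993 and 672 counts, the second value turning sign when libraries were scaled by total counts. Among the markers, COL1A1 stood at 0.22 and -0.039 and KRT8 at 0.0033 and -0.098. Neither value of COL1A1 exceeds counting error, nor does that of MYL6B in DDX24-sh2 or that of KRT8 in DDX24-sh1.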

How the results depend on the processing

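No paired analysis was possible because each condition has 1 library. With DESeq2 size factors, total counts, TMM without mitochondrial genes, a prior count of 0.5, or the FPKM with the shRNA labels exchanged, every ratio and median of the 10 genes and of DDX24 moved by less than its counting interval, and TAGLN and MYL9 stayed past 2-fold.

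The FPKM with labels as given moved 15 of 24 values and reversed 2, as the exchange of the labels implies. In DDX24-sh1 and DDX24-sh2 they gave 0.41 and -0.082 for TPM1 (both reversed), -0.016 and -0.20 for TAGLN2, 0.47 and 0.93 for ACTA2, 0.78 and 0.70 for TPM2, 1.25 and 1.80 for MYL9, 0.048 and 0.18 for CALD1, 0.098 and 0.32 for ACTN1, and -1.45 and -1.72 for DDX24. The median of the 10 genes in DDX24-sh1 became 0.40.

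Of the 94 related genes, 2 were higher (LIMA1 and PDLIM7) and 3 lower (MYOCD, PPP1R12B and TES) in both libraries at 1.5-fold. Without a filter, 1 was higher (ACTG2) and 3 lower (MYOCD, TAGLN3 and ACTN3) at 2-fold, the added genes having at most 9 counts, and at a mean of at least 10 CPM 0 were lower, since MYOCD is below that mean.

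Without division by length, which raises the share of long genes, the shares, in the order used above, were 1.72%, 5.69% and 5.23% for TAGLN, 13.4%, 19.3% and 18.05% for TPM2, 2.85%, 7.76% and 5.74% for MYL9, and 21.1%, 21.97% and 20.2% for ACTN1. An alternative chosen after seeing the data, CNN1 at a floor of 3 counts, left the medians unchanged. Depth limits CNN1, ACTA2 and the muscle paralogues most.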
